A study of Mus musculus with 2 samples.

Results

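The regions described here are divergent bidirectional promoters: stretches of the mouse genome where 2 protein-coding genes start back to back, one on each strand, and are transcribed away from each other. Pairs were taken from the GENCODE vM21 annotation of chromosomes 1 to 19. The start of the minus-strand gene had to lie to the left of the start of the plus-strand gene, at a distance of at most 1000 bp, and the transcription start site (TSS) was the annotated 5′ end of each gene. This gave 734 pairs with 1448 genes, which are 6.96% of the 20807 protein-coding genes on these chromosomes. Of these genes, 20 belong to 2 pairs, so that 714 pairs remain when pairs sharing a gene are counted once. In each name below the minus-strand gene comes first. The comparison set was 18486 unpaired genes. The remaining 873 genes had the start of an opposite-strand gene within 1000 bp in another arrangement and entered neither set.

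Chromatin accessibility was measured by DNase-seq, which maps DNA that the nuclease DNase I can cut, in midbrain tissue of healthy mouse embryos at 11.5 days. Embryos were of the B6NCrl strain, and males and females were pooled. The study has 1 group of 2 biological replicates and no second condition, so values are given per replicate, with mean ± SD over n = 2 where they are averaged, and no test between groups could be made. The replicates were sequenced on different combinations of instruments.

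In a divergent promoter, 2 core promoters facing away from each other are served by a common upstream stretch, often a nucleosome-depleted CpG island. Such arrangements are typical of housekeeping genes, with DNA repair, histone and mitochondrial genes as textbook cases. Transcription factors such as NF-Y, SP1 and the ETS family bind many promoters of this kind.

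Several stretches between the 2 TSSs are shown because they span the range of the results below. All were read from the GRCm38.p6 sequence (mm10) on the plus strand, 5′ to 3′, and lie outside annotated exons. Capitals mark NF-Y (CCAAT, or ATTGG on the other strand), SP/KLF (GGGCGG, or CCGCCC), ETS (CCGGAAG, or CTTCCGG) and cyclic AMP response element (CRE, TGACGTCA) letters. The first 4 stretches come from the pairs with the strongest peaks. They are Hjurp/Trpm8 at chr1:88277634-88277660, Dtl/Ints7 at chr1:191575545-191575635, Ncapd2/Mrpl51 at chr6:125191702-125191800 and 1300017J02Rik/Topbp1 at chr9:103305083-103305214.
Hjurp/Trpm8: ggggagggacgagagggagggtccgcc
Dtl/Ints7: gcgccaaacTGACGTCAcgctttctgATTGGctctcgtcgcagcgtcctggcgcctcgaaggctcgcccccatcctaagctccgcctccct
Ncapd2/Mrpl51: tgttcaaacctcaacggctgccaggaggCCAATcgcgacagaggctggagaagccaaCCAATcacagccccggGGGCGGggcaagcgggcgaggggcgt
1300017J02Rik/Topbp1: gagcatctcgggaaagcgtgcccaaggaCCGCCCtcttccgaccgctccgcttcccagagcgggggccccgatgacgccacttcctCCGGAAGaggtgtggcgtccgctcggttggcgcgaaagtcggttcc

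A second set comes from accessible pairs with 4 or more NF-Y matches between the TSSs. They are Mrps12/Sars2 at chr7:28741821-28741991, Recql/Golt1b at chr6:142387088-142387220 and the histone pair Hist1h2ag/Hist1h2bj at chr13:22042945-22043213. The last was added after its values were seen, to stand beside a histone pair without a peak.
Mrps12/Sars2: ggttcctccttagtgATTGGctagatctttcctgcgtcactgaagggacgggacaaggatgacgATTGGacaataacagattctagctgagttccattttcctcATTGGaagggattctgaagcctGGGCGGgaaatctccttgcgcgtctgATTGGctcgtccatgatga
Recql/Golt1b: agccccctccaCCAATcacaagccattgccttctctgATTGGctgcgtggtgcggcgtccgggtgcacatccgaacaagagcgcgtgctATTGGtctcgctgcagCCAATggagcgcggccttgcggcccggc
Hist1h2ag/Hist1h2bj: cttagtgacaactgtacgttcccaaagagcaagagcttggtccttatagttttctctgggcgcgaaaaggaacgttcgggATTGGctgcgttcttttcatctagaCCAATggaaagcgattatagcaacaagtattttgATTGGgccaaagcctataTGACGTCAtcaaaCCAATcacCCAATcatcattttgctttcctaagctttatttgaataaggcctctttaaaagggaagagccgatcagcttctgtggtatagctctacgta

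The last set comes from pairs with no peak in either replicate. They are Hist1h2ap/Hist1h2br at chr13:21833508-21833742, Best1/Rab3il1 at chr19:10001634-10001668, Ccnt1/4930415O20Rik at chr15:98570924-98571003 and 4931428L18Rik/Pih1d3 at chr1:31222685-31222837.
Hist1h2ap/Hist1h2br: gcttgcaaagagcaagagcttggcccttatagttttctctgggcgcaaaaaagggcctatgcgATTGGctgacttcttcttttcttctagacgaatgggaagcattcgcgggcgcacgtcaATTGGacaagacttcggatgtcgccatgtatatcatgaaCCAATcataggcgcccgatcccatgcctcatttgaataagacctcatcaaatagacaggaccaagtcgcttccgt
Best1/Rab3il1: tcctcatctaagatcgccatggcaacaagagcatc
Ccnt1/4930415O20Rik: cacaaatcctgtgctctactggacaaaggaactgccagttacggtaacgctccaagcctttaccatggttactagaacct
4931428L18Rik/Pih1d3: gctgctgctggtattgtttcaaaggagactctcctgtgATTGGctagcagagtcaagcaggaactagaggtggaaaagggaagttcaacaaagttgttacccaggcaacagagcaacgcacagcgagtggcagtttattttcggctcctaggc

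The 2 peak lists differed in size and scale. Replicate 1 held 306572 peaks with a median signal of 18, and replicate 2 held 455245 peaks with a median signal of 8. The peaks were 150 bp wide at the median and all began on 1 grid of 20 bp, which limits how finely a position can be read. The signal is a whole number with no stated scaling, so it was compared only within a replicate, and read depth is unknown. As a check of the tissue, 9 of 12 midbrain and neural progenitor markers and 5 of 5 neuronal markers had a peak within 500 bp of the TSS in both replicates. The same held for 1 of 5 erythroid, 1 of 5 endothelial, 0 of 5 microglial and 3 of 5 mesenchymal markers. Over all protein-coding genes it held for 62.7% of TSSs, so these short lists are only a weak check of the tissue.

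Nearly every divergent promoter was accessible in the embryonic midbrain. A pair was counted when a peak overlapped the stretch between its TSSs or the 500 bp beyond either TSS. Peaks were found at 706 pairs in replicate 1 (96.2%) and at 710 in replicate 2 (96.7%), a mean of 96.5% ± 0.385 (SD, n = 2). Both replicates had a peak at 705 pairs (96.0%), and at 692 of them each TSS had a peak within 500 bp in both replicates. Across all protein-coding genes, 65.3% of TSSs had a peak within 500 bp in replicate 1, 67.1% in replicate 2 and 62.7% in both. Of the TSSs in pairs, 1378 had one in both replicates (95.2%), against 10868 unpaired TSSs (58.8%).

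The gap was far smaller between TSSs of like base composition. The observed to expected CpG ratio within 500 bp of a TSS had a median of 0.777 at paired and 0.501 at unpaired TSSs, and the GC content a median of 59.9% and 54.2%. Averaging unpaired TSSs over CpG classes as the paired ones were distributed raised their share with a peak to 93.6% in replicate 1 and 94.4% in replicate 2. Paired TSSs stood at 95.3% and 96.4%. The difference was 1.67 and 2.02 percentage points, a mean of 1.85 ± 0.247 (SD, n = 2), larger than the spread between the replicates. That SD is over replicates of the same TSSs and does not measure the spread over TSSs. In pairs at most 500 bp apart the window also takes in the partner's TSS, so 1 peak can count for 2 paired TSSs. The part of this in the difference was not tested. The difference was 10.4 points when the classes were made of GC content and 3.36 points with a flank of 250 bp.

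The difference was not of 1 direction over the CpG classes. Of 67 paired TSSs with a ratio below 0.4, 18 had a peak in both replicates (26.9%), against 1056 of 8007 unpaired ones (13.2%). In the class from 0.1 to 0.2, 8% of 25 paired TSSs had a peak in replicate 1 and 20% in replicate 2, against 9.89% and 12.5% of 2984 unpaired ones. In the class from 0.3 to 0.4, the 20 paired TSSs reached 65% and 75%, against 45.5% and 51.0%. The small classes rest on few pairs. From a ratio of 0.4 upwards, 1360 of 1381 paired TSSs (98.5%) and 9812 of 10479 unpaired TSSs (93.6%) had a peak in both replicates. The class from 0.9 to 1 went the other way, with a peak at 97.9% of 191 paired TSSs in each replicate, against 99.7% and 99.9% of 1146 unpaired ones. Only a few paired TSSs without a peak make up this gap. The peak-free histone pairs Hist1h2ap/Hist1h2br and Hist1h2bq/Hist1h2ao, described below, have CpG ratios of 0.906 and 0.923 over the pair window. Their part in the gap was not tested.

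The strongest peak within 500 bp was also stronger at paired TSSs than at unpaired TSSs of like CpG ratio. For most pairs this window takes in both TSSs, so the strongest peak around 2 starts is set against that around 1. The part of this in the difference was not tested. Among TSSs with a peak, the strongest one within 500 bp lay on average at percentile 97.7 of all peaks in replicate 1 and at 98.1 in replicate 2. Unpaired TSSs of like CpG ratio lay at 94.8 and 97.0. The difference was 2.84 and 1.11 points, a mean of 1.98 ± 1.22 (SD, n = 2), and it was 3.95 points with classes of GC content. In the class with a CpG ratio from 0.5 to 0.6, the median signal was 116 at 112 paired and 94.5 at 1383 unpaired TSSs in replicate 1, and 68 against 57 in replicate 2. In the class from 0.9 to 1, the medians were 126 against 123 and 83 against 81. From a ratio of 0.4 to 1 the gap narrowed from class to class in both replicates.

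**Figure D1:**
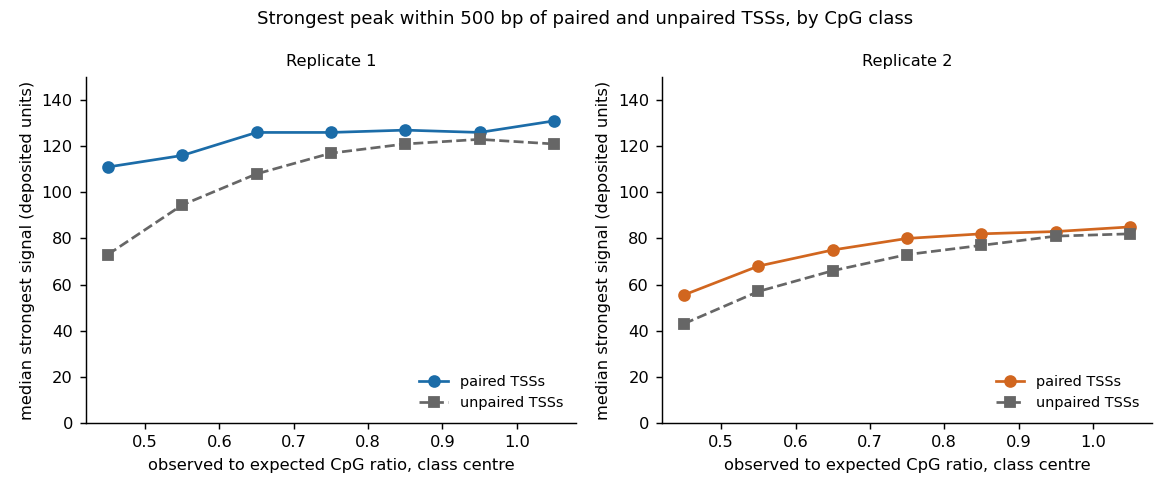
Median signal of the strongest peak within 500 bp of paired TSSs (circles) and unpaired TSSs (squares) with a peak, by class of observed to expected CpG ratio from 0.4 to 1.1, in deposited units, 1 panel per replicate. The paired median lay above the unpaired one in every class shown, by most in the class from 0.4 to 0.5 (111 against 73 in replicate 1, 55.5 against 43 in replicate 2).

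Of the 734 pairs, 68.9% had their TSSs within 200 bp of each other. There were 306 pairs at most 100 bp apart, 200 pairs over 100 and up to 200 bp apart, 96 pairs over 200 and up to 300 bp apart, 64 pairs over 300 and up to 500 bp apart and 68 pairs over 500 and up to 1000 bp apart. The widest class had the lowest CpG ratio, with a median of 0.635 over the window, against 0.777 in the closest. Both replicates had a peak at 296, 191, 93, 63 and 62 pairs of these classes.

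Whether the TSSs of a pair had a peak in common depended on the distance between them, in part by construction. For each TSS the strongest peak within 150 bp was taken, so that close TSSs nearly always pick the same peak and TSSs over 500 bp apart cannot. No like measure was made at unpaired promoters. In the closest class, the same peak served both TSSs in 288 of 306 pairs in replicate 1 and in 285 in replicate 2, a mean of 93.6% ± 0.693 (SD, n = 2). From 100 to 200 bp it did so in 182 and 171 of 200 pairs, a mean of 88.3% ± 3.89 (SD, n = 2). From 200 to 300 bp the replicates parted, with 71 and 49 of 96 pairs. Only 11 and 13 of 64 pairs shared a peak from 300 to 500 bp, where 33 and 26 pairs had a separate peak at each TSS. Beyond 500 bp, separate peaks were found in 35 and 39 of 68 pairs, a mean of 54.4% ± 4.16 (SD, n = 2), and 28 pairs had them in both. By the stricter measure of a single peak covering both starts, the counts were 231 and 189 of 306 in the closest class, 29 and 15 of 200 in the next, and 0 in the classes beyond.

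**Figure D2:**
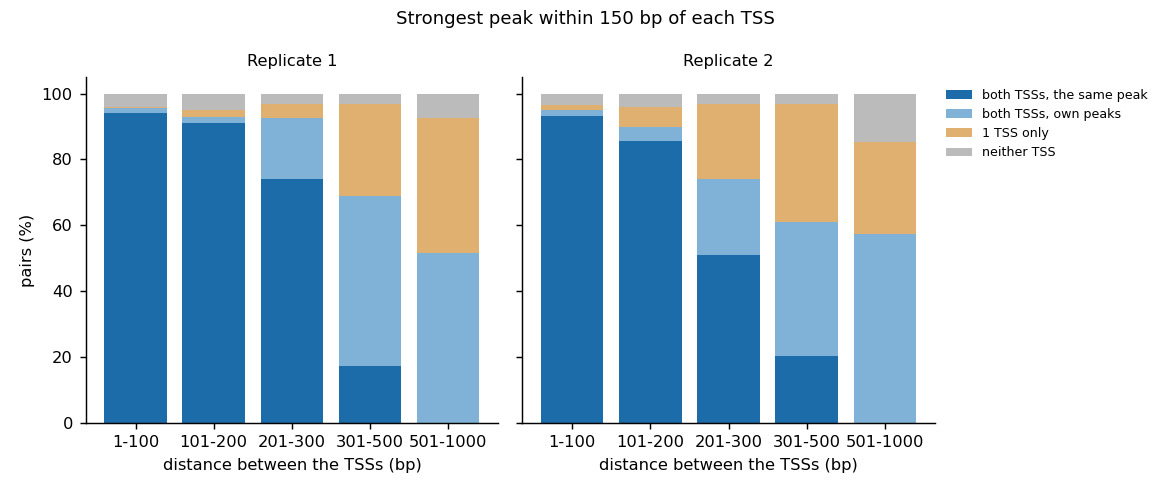
Share of pairs (%) in each distance class (bp) whose TSSs both had the same strongest peak within 150 bp, each had its own, only 1 TSS had one, or neither did, with 1 panel per replicate. The shared state fell from 94.1% and 93.1% of the closest pairs to 17.2% and 20.3% of pairs 300 to 500 bp apart. Separate peaks were found in 51.6% and 40.6% of pairs 300 to 500 bp apart and in 51.5% and 57.4% of the widest class.

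In replicate 1 the strongest peak sat near the middle of pairs up to 300 bp apart, and in replicate 2 it did so less closely. Its centre lay at a median distance from the midpoint of 23 bp in replicate 1 and 32.3 bp in replicate 2 for the closest pairs. For pairs 100 to 200 bp apart the medians were 26 and 58.8 bp, and for pairs 200 to 300 bp apart 36.5 and 91.5 bp. They then rose to 134 and 131 bp from 300 to 500 bp, and to 332 and 333 bp in the widest class, which is close to the place of a TSS. In replicate 2 the strongest peak thus lay off centre at shorter distances than in replicate 1.

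**Figure D3:**
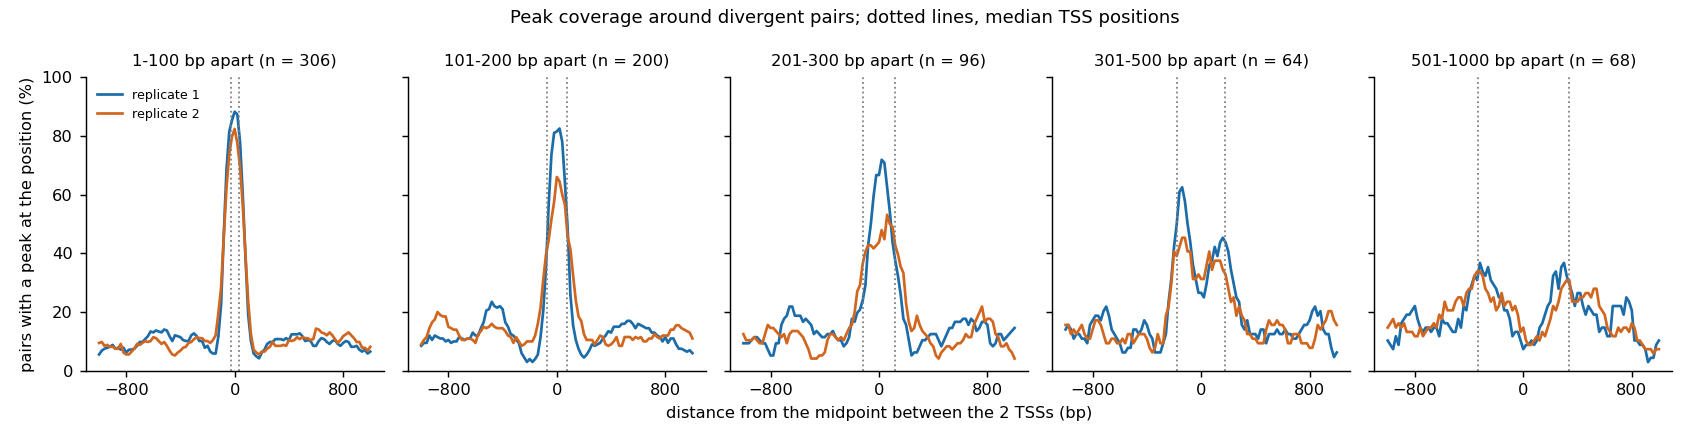
Share of pairs (%) with a peak at each position around the midpoint between the TSSs (bp, plus strand to the right), in 5 distance classes, for replicate 1 (blue) and replicate 2 (orange). A single summit in the 2 closest classes gives way to 2 summits near the median TSS positions (dotted lines) in the 2 widest.

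Up to 500 bp apart, pairs held their strongest peak centrally more often than unpaired promoters did at the corresponding place. For them a second start was set upstream at the median distance of each class, and windows of like length and CpG class were used. In pairs 200 to 300 bp apart, 60.2% of strongest peaks in replicate 1 and 31.2% in replicate 2 lay within 50 bp of the midpoint, against 19.5% and 14.4% at unpaired promoters. In the closest class the shares were 76.7% and 64.8% against 49.4% and 38.9%. In the widest class they were 0% and 4.84% against 1.75% and 2.20%, and the shares centred anywhere between the TSSs were 66.7% and 61.3% against 62.8% and 49.4%. Over all classes, the strongest peak was centred between the TSSs in 67.6% and 54.1% of pairs with a peak, against 46.9% and 35.6% of unpaired windows. That difference was 20.7 and 18.5 points, a mean of 19.6 ± 1.57 (SD, n = 2), far larger than the spread between replicates.

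From a single TSS, the replicates differed in how widely the peaks were spread. At paired TSSs over 200 and up to 300 bp apart, the strongest peak within 500 bp had its centre at a median of -124.5 bp in replicate 1 and -116 bp in replicate 2, negative values being upstream. A peak that serves both TSSs has distances to them that sum to the distance of the pair, so these medians lie near the middle of the pair by construction. The quartiles were -164 and -80.8 bp in replicate 1 and -213 and -34.5 bp in replicate 2. At unpaired TSSs with a CpG ratio of at least 0.7, the medians were -32.5 and -7.5 bp.

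**Figure D4:**
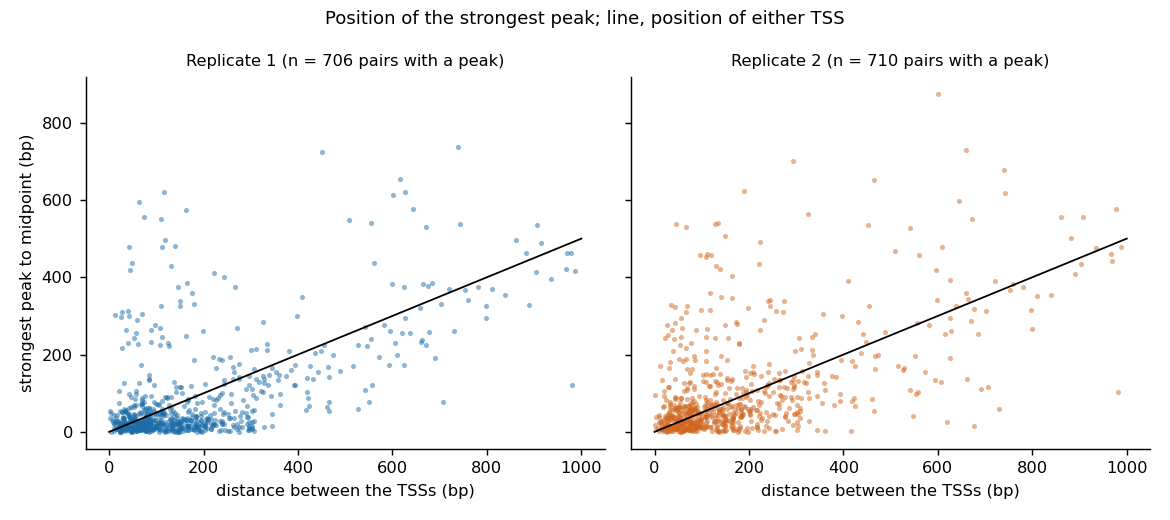
Distance of the strongest peak's centre from the midpoint between the TSSs (bp) against the distance between the TSSs (bp), each point 1 pair with a peak, for 706 pairs in replicate 1 and 710 in replicate 2. The line marks where either TSS lies: in replicate 1 the points sit low up to about 300 bp, while in replicate 2 many already lie near the line from 100 bp.

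The number of peaks in a window varied with the distance between the TSSs. Windows of pairs held 1.83 peaks in replicate 1 and 1.70 in replicate 2, and unpaired windows of like length and CpG ratio held 1.79 and 1.78. The difference of 0.0473 and -0.0795 peaks changed sign between the replicates, a mean of -0.0161 ± 0.0896 (SD, n = 2), and is not larger than their spread. In the closest class, pairs had fewer peaks than unpaired windows in both replicates, 1.58 against 1.71 and 1.47 against 1.67. In the widest class they had more, 2.49 against 1.88 and 2.41 against 2.02. A pair window holds the TSSs of 2 genes, while an unpaired window is placed by 1 TSS. The part of this in the peak numbers was not tested.

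The replicates placed the strongest peak at overlapping positions in 618 of the 705 pairs with a peak in both (87.7%), and at the same position in 121. Their centres were 40 bp apart at the median. Merging the peaks of both replicates gave 1559 sites in all pair windows, of which 944 (60.6%) had a peak from both. A single such site was found in 481 pairs, 2 in 174 pairs and 3 or more in 37 pairs, while 13 pairs had peaks in both replicates but no common site. Within pair windows, 73.8% of peaks of replicate 1 and 79.5% of replicate 2 overlapped a peak of the other, against 70.8% and 71.0% in like unpaired windows. The difference was 2.93 and 8.54 points, a mean of 5.73 ± 3.96 (SD, n = 2).

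The signal of the strongest peak in a window had close quartiles among pairs but a wide range. In replicate 1 it ran from 26 to 148 with a median of 126 and quartiles of 116 and 133. In replicate 2 it ran from 16 to 130 with a median of 79 and quartiles of 70 and 87. Spearman's rho between the replicates was 0.47 across the 705 pairs, which share the 2 libraries and their signal scales. Its rho with the CpG ratio of the window was 0.19 in replicate 1 and 0.35 in replicate 2.

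The 10 pairs with the highest mean percentile lay from 28 to 465 bp apart, and in 9 of them 1 peak served both TSSs in both replicates. Hjurp, which loads the centromeric histone, and Trpm8, a cold-sensing channel, start 28 bp apart and had the highest signals of all pairs, 148 in replicate 1 and 130 in replicate 2. Dtl, a substrate receptor of a ubiquitin ligase active in the cell cycle, and Ints7, an Integrator subunit, had 146 and 96. The stretch between them holds a CRE match and 1 NF-Y match. Ncapd2, a condensin subunit, and the mitochondrial ribosomal gene Mrpl51 had 139 and 100. All 99 bp between them were covered by peaks in both replicates. These 3 pairs lie at most 100 bp apart and each had 1 shared peak.

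The other pairs among the 10 with the highest mean percentile had nearly the same values. Pdhx, a component of the pyruvate dehydrogenase complex, and Apip, an enzyme of methionine salvage, had 141 and 95. Skiv2l, an RNA helicase of the exosome pathway, and Nelfe, a subunit of the negative elongation factor, had 139 and 97, and the stretch between them holds 4 SP/KLF matches. The checkpoint gene Topbp1 and 1300017J02Rik had 137 and 100. Mphosph9/2810006K23Rik had 140 and 98, Deaf1/Tmem80 had 138 and 100, and Zfp91/Lpxn had 141 and 94. These values are the strongest in the window, not always the peak at the TSSs. In replicate 2 the 94 at Zfp91/Lpxn lay at -529 bp from the midpoint, and the peak at its TSSs had 73. The 98 at Mphosph9/2810006K23Rik lay at -360 bp, with 94 at the TSSs. In replicate 1 the 138 at Deaf1/Tmem80 lay at 436 bp, with 137 at the TSSs. Plag1/Chchd7, at 465 bp the widest of these, had 140 and 94, with a peak within 150 bp of the Chchd7 TSS only.

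DNA repair genes were often found in divergent pairs. Of 99 listed genes, 33 were paired (33.3%, against 6.96% of all genes), and 34 of their 35 pairs had a peak in both replicates, near the 96.0% of all pairs. The median strongest signals were 126.5 and 83, against 126 and 79 over all pairs with a peak in both. Atm, the kinase that signals double-strand breaks, and Npat, an activator of histone genes, start 307 bp apart and shared 1 peak of 135 and 102. Wrap53/Trp53 shared a peak of 116 and 55. Brca1/Nbr1 had 119 and 89, with a shared peak in replicate 1 and separate peaks in replicate 2. Among the 59 unpaired genes of the list, 55 had a TSS peak in both replicates. The share was 58.8% over all unpaired TSSs and 93.6% over those with a CpG ratio from 0.4 upwards.

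DNA replication genes gave 9 paired of 54 (16.7%) and peaks in both replicates at 10 of 10 pairs, also near that share. Mcm4, a subunit of the replicative helicase, and Prkdc, the catalytic subunit of DNA-dependent protein kinase, start 466 bp apart. Each had its own peak, with 136 at Mcm4 and 117 at Prkdc in replicate 1 and with 81 and 74 in replicate 2. Rpa3, a subunit of the single-strand binding protein, forms pairs with Umad1 and Gm45062, and both windows contained the same peak of 137 and 89.

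Genes of mitochondrial function were paired more often than the 6.96% of all genes. Of 78 mitochondrial ribosomal genes, 18 were paired (23.1%), and of 91 respiratory chain genes 22 (24.2%). Both lists had a peak in both replicates at every pair, 18 of 18 and 22 of 22, near the 96.0% of all pairs. Among them, Atp5h/Kctd2 had 134 and 85, Atp5h being a subunit of the ATP synthase. Mrps12/Sars2 joins a mitochondrial ribosomal protein and the mitochondrial seryl-tRNA synthetase, 172 bp apart, with 133 and 64. The strongest peak lay at -15.5 bp from the midpoint, to its left, in replicate 1 and at 284.5 bp, to its right, in replicate 2. The replicates thus picked different sites as the strongest, but in replicate 2 by little, with 63 near the Mrps12 TSS and 64 near the Sars2 TSS. The window held 2 sites common to both replicates.

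Genes of protein synthesis, folding and turnover had shares near the 96.0% of all pairs. Peaks in both replicates were found at 7 of 7 proteasome pairs, 5 of 5 aminoacyl-tRNA synthetase pairs and 10 of 10 chaperone pairs. Psmb1, a proteasome subunit, and Tbp, the TATA-binding protein, start 137 bp apart and had 131 and 77. Tecr/Dnajb1, with the heat shock co-chaperone Dnajb1, had 135 and 97. The lowest of the chaperone pairs, Hspa1a/Hspa1l with 65 and 46, lies 547 bp apart and was singled out after its values were seen.

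Zinc finger genes were paired about as often as other genes, and the neural lists not at all. Of 385 Zfp zinc finger genes 20 were paired (5.19%), near the 6.96% of all genes. Of their 18 pairs 17 had a peak in both replicates, near the 96.0% of all pairs. None of 55 neural transcription factors, 31 neuronal genes and 1087 olfactory receptors was paired. The neural transcription factors were accessible as single promoters, 51 of 55 in both replicates. So were 26 of 30 unpaired neuronal genes, but only 11 of 1086 unpaired olfactory receptors. The share was 58.8% over all unpaired TSSs and 93.6% over those with a CpG ratio from 0.4 upwards. The lists were not compared at like CpG ratio.

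Core histone genes had the highest share of paired genes among the lists, 27 of 61 (44.3%). They formed 13 pairs of 2 histone genes, 12 of which join an H2a with an H2b gene, the 2 proteins that assemble as a dimer. A peak was found in both replicates at 10 of these 13 pairs, and at 7 of them both TSSs shared 1 peak in both replicates. Hist1h2ag and Hist1h2bj start 270 bp apart and had a peak of 125 in replicate 1 and 66 in replicate 2, centred at -8.5 bp from the midpoint, to its left, in both. Hist1h2ah/Hist1h2bk at 302 bp had 129 and 64, and Hist1h2an/Hist1h2bp at 243 bp had 126 and 58. Over the 11 of 14 pairs with a histone gene that had a peak in both replicates, the median strongest signals were 120 and 56, below the 126 and 79 of all pairs. None of the 13 pairs had separate peaks at its 2 TSSs in both replicates, beside 60 of all 734 pairs.

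The 3 histone pairs without a peak were of different kinds. For Hist1h2ap/Hist1h2br and Hist1h2bq/Hist1h2ao, 100% of the 36-base stretches of the window were also found elsewhere on chromosome 13. In the other chromosome 13 histone windows that share ran from 14.8% to 58.6%. The stretch between Hist1h2ap and Hist1h2br holds 3 NF-Y matches, beside 5 in that of Hist1h2ag and Hist1h2bj. The third pair, Hist1h2ba/Hist1h2aa, has the lowest share, 14.8%, and holds testis histone genes. Whether reads could be placed in the repeated windows was not tested.

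Of the 21 divergent pairs listed as known from the literature, 10 met the rule and 9 of these had a peak in both replicates. Gart, a purine synthesis enzyme, and Son, a splicing protein, start 554 bp apart and had 136 and 72. The 136 lay at 541.5 bp from the midpoint. Within 150 bp of the Gart TSS the signals were 120 and 72, and no peak lay that near the Son TSS in either replicate. Pdcd10/Serpini1, at 691 bp, had 133 and 81, with separate peaks at both TSSs in replicate 1 and none within 150 bp of either TSS in replicate 2. The helicase gene Recql and Golt1b, with 4 NF-Y matches between them, shared a peak of 120 and 73. The exception was Col4a4/Col4a3, which encode basement membrane collagens: it had no peak in replicate 1 and a signal of 24 in replicate 2. Of the 11 pairs outside the rule, 9 have 5′ ends that overlap by 21 to 341 bp, among them Col4a1/Col4a2 (21 bp) and Hspd1/Hspe1 (111 bp).

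No peak was found at 23 pairs with 45 genes, and most of these lacked CpG. The window's CpG ratio had a median of 0.257 there, against 0.771 at pairs with a peak in both replicates, and was below 0.4 in 17 of the 23. Of all 28 pairs below 0.4, 7 had a peak in both replicates, against 698 of 706 pairs from 0.4 upwards. Several of the 23, picked after their values were seen, have a gene known from another cell type. Pecam1/Milr1 pairs an endothelial adhesion molecule with a mast cell receptor. Smyd1/Cd8b1 pairs a muscle methyltransferase with a T cell coreceptor, and Ifit1bl2/Ifit1 are interferon-induced. Patl2/Terb2 and Il11/Tmem190, picked likewise, and Gml/Gml2 belong to the same 23. So do the pairs of Rps2, Ccnt1, Xrcc1 and Trim28, described below. Whether expression in other cell types plays a part was not tested.

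The 7 pairs with little CpG and a peak in both replicates, named after their values were seen, include Kirrel2/Nphs1, nephrin-family adhesion genes, with 104 and 38. Haghl/Ccdc78 had 99 and 77, H2-T22/Gm6034 had 92 and 40, and Lrrc74b/P2rx6 had 80 and 41. Sncg/Mmrn2, Stap2/Mpnd and Odf3l1/Cspg4 had 60 and 16, 37 and 22, and 35 and 34. All 7 thus lay below the median of 126 in replicate 1, and below the median of 79 in replicate 2.

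Of the 45 genes in pairs without a peak, 9 have another annotated start with a peak in both replicates. The ribosomal protein gene Rps2 had 137 and 70 at a start 1947 bp away, and the cyclin gene Ccnt1 had 133 and 79 at one 3287 bp away. The repair gene Xrcc1 had 134 and 89 at a start 861 bp away, and its pair with Pinlyp is the only one of the 23 with a hotspot, the broader class of accessible region in the deposited lists. Trim28, a corepressor, had 119 and 90, and Rab3il1 had 125 and 75. In these pairs the 5′ end of the gene record is not the start with a peak.

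Few pairs had a peak in 1 replicate only. Nisch/Sema3g, 914 bp apart, was the only one in replicate 1 alone, with 75. The 5 pairs in replicate 2 alone included Col4a4/Col4a3 with 24, Bhmt2/Dmgdh with 21 and Nt5c3b/Klhl10 with 19. These 3 signals lie far below the replicate 2 median of 79.

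The widest pairs were of several kinds. Of the 68 pairs beyond 500 bp, 28 had separate peaks at both TSSs in both replicates, 13 had a peak within 150 bp of only 1 TSS in both replicates, 5 at neither TSS, and 4 had a single common site. Rnf5, a ubiquitin ligase, and Agpat1, a lipid synthesis enzyme, 572 bp apart, had 135 and 141 at their TSSs in replicate 1 and 71 and 89 in replicate 2. Lamtor2/Ubqln4, 684 bp apart, had 136 and 125 in replicate 1 and 86 and 92 in replicate 2. Tbc1d10c/Ppp1ca, 781 bp apart, instead had 1 site, at the TSS of the phosphatase gene Ppp1ca, with 124 and 76. Tas1r1/Nol9, a taste receptor and a nucleolar kinase 753 bp apart, had its only site at Nol9, with 95 and 81.

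The pairs with the most sites common to both replicates had 3 to 5 of them. Gm45785/Ric8a, 626 bp apart, had 5, and Smim7/Tmem38a, 967 bp apart, had 4. Ccni/2010109A12Rik also had 4 although its TSSs lie 23 bp apart, so that its further sites lie beyond the TSSs. Pairs just inside the distance limit, Btf3l4/Txndc12 (987 bp, signals of 135 and 97), Asphd1/Sez6l2 (981 bp, 97 and 69) and Zfyve26/Rad51b (978 bp, 124 and 57), had values like those just outside it. The latter were Gpr108/Trip10 (1009 bp, 121 and 90), Sgsm2/Tsr1 (1011 bp, 120 and 74) and Dirc2/Hspbap1 (1019 bp, 111 and 83).

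Windows of divergent pairs held ETS letters more often than windows of unpaired promoters of like CpG ratio. Exact letters were searched on both strands in 300 bp around the midpoint, and in 300 bp placed alike upstream of unpaired TSSs. In the 68.9% of pairs at most 200 bp apart, the window holds both TSSs, while an unpaired window is placed by 1 TSS. The shares are thus per window and not per promoter. No consensus contains another. The ETS consensus CCGGAAG was found in 208 of 734 pairs (28.3%), against 14.6% of unpaired promoters of like CpG ratio and 7.31% of all unpaired promoters. The YY1 consensus AAGATGGCG was found in 41 pairs (5.59% against 2.75%), and the palindrome CTCGCGAG in 28 (3.81% against 1.94%). CCAAT was found in 325 pairs (44.3% against 35.5%), and NRF1 CGCATGCG in 38 (5.18% against 3.61%). TGACGTCA was found in 33 (4.5% against 3.26%), and ZNF143 ACTACAATT in 6 (0.817% against 0.476%).

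Other letters were about as frequent or less frequent at pairs. GGGCGG was present in 498 pairs (67.8%) and in 66.3% of unpaired promoters of like CpG ratio, although in 35.2% of all unpaired ones. The E-box CACGTG was present in 80 pairs (10.9% against 10.1%). The TATA consensus TATAAA was the only one less frequent at pairs, in 33 of them (4.5%), against 6.75% at like CpG ratio and 14.2% of all unpaired promoters. These shares describe letters and not bound factors, and no test was made of them.

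**Figure D5:**
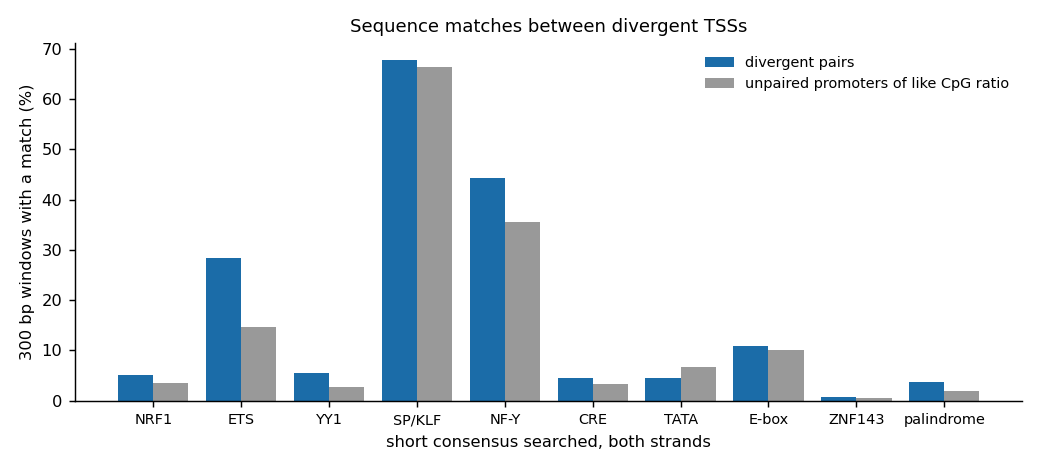
Share (%) of 300 bp windows with at least 1 exact match on either strand, for 734 divergent pairs (blue) and unpaired promoters averaged over like CpG classes (grey). The ETS bars, 28.3% against 14.6%, stand furthest apart, and the TATA bars are the only ones that are lower for pairs.

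Nearly all pairs with ETS or GGGCGG letters were accessible, and their signals differed little from those of the other pairs. Of the pairs with ETS letters, 207 of 208 had a peak in both replicates, against 498 of 526 without. With GGGCGG it was 494 of 498, against 211 of 236. The part of CpG content in these counts was not tested. For ETS the median strongest signals were 127 with and 126 without in replicate 1, and 78 and 79 in replicate 2. With CCAAT the medians were 129 against 123 in replicate 1 and 78 against 80 in replicate 2, so that the direction differed between the replicates. With GGGCGG the medians were 127 against 122 and 81 against 74, higher in both. Where CCAAT was present in a pair with peaks, it lay inside the strongest peak in 80.8% of pairs in replicate 1 and 60.7% in replicate 2. For TATAAA these shares were 25.8% and 51.6%, and for GGGCGG 76.7% and 78.2%. Matches also differed in place, with 76.6% of pairs with CCAAT but 54.5% of those with TATAAA having one in the central 150 bp. The part of this in the shares was not tested, and TATAAA was present in only 33 pairs. The 144 pairs with 3 or more of the 10 consensus sequences all had a peak in both replicates, and of the 64 with none 52 did.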

How the data were processed

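Peaks and hotspots were deposited for each replicate on mm10, per the labels. No source used here names the aligner, the peak caller, their versions or the filters. The signal of a peak is deposited as a whole number without a stated normalization, and was compared only within a replicate. Hotspots were deposited with a −log10 q value and were used only for their positions, in an alternative and in counts of pairs. No sample column was left unmatched (0).

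TSSs came from GENCODE vM21 gene records. A peak was in a window when it overlapped it by at least 1 bp. The flank was 500 bp. Unpaired values were averaged over CpG ratio classes of width 0.1 and, for windows, distance classes, as the members were distributed. Classes had to hold at least 10 unpaired TSSs. Only the averaging over CpG classes, for the share of TSSs with a peak, was tested on simulated data. There, peaks were counted by their exact centre, and the tolerance was wider than the difference reported here. The other comparisons were not simulated. Python 3.11.15, numpy 2.4.6 and matplotlib 3.10.9 were used.

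Members, lists and consensus letters were chosen with earlier results of these data known. Named pairs were the 10 strongest by mean percentile, known pairs, up to 12 pairs without a peak in alphabetical order, the 5 with the most sites, the 2 strongest of each list, the 3 strongest in 1 replicate only, the 3 strongest wide pairs of either kind, and the 3 nearest the limit on either side. Some pairs that meet these criteria are not reported here. Others named in the text were chosen after their values were seen. Read depth is unknown, so no interval for counting error is given. The alternatives were another TSS definition, distance, flank, peak strength, overlap, kind of region, composition class and unpaired set, and leaving out a replicate.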

Additional observations from a re-analysis of the deposited data

How the results depend on the processing

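The 6 comparisons were recomputed under 57 alternatives in all. The value moved by less than 1 SD between the replicates in 45 and by more in 12, and none of these reversed a called direction. Part of this tally was fixed in advance. With 2 replicates, leaving out either always gives a value within 1 SD of the mean. The share of pairs with a peak cannot change sign, and the difference in peaks per window had no called direction to reverse. The share of pairs with a peak was 95.9% with any transcript start as TSS, which gave 971 pairs of which 656 were among the 734, and 96.9% with pairs at most 500 bp apart. The excess of paired over unpaired TSSs with a peak was 1.45 points with pairs at most 500 bp apart, 3.36 with a flank of 250 bp, 2.16 with the stronger 50% of peaks, 2.13 with hotspots and 10.4 with GC classes. The difference in peaks per window was 0.0902 with a flank of 250 bp and 0.0955 with GC classes, and it was above 0 in 5 of 11 alternatives. The excess in percentile was 3.95 with GC classes and 1.11 to 2.84 with single replicates. The excess of centred peaks was 17.4 points with any transcript start and 16.5 with a flank of 250 bp. The cause of these moves was not tested. Overlap between replicates has no value from a single replicate, and hotspots were not run where signal or overlap is used. Counting pairs that share a gene once was chosen after seeing the data and moved none of its 4 results by more than 1 SD. No paired analysis was possible because the study has a single group. With 2 replicates, an SD is itself imprecise, and the 20 bp grid limits positions.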

Other observations

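The arrangement next to the divergent one was also accessible. In 445 further pairs of protein-coding genes, the 5′ ends overlap by at most 1000 bp, with the start of the minus-strand gene to the right of that of the plus-strand gene, so that both genes cover the stretch between the starts. The overlap had a median of 326 bp. A peak was found in both replicates at 433 of these pairs (97.3%), beside 96.0% of the divergent pairs. The strongest signal had a median of 122 in replicate 1 and 76 in replicate 2, beside 126 and 79. The strongest peak lay at a median of 204.5 bp from the middle of the overlap in replicate 1 and 182 bp in replicate 2. Among known pairs, Hspd1/Hspe1, Ppat/Paics, Surf1/Surf2 and Col4a1/Col4a2 have this arrangement.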
